A study of Mus musculus with 36 samples.

Results

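The subject here was the set of complex I subunits that the mitochondrial genome encodes, followed through 36 RNA-seq libraries of primary cortical neuron cultures from E15 pups of the CD1 mouse strain. Of the 27288 rows in the deposited table, 6 were taken to hold 1 such message each: mt-Nd1, mt-Nd2, mt-Nd3, mt-Nd4, mt-Nd5 and mt-Nd6. They were taken by identifier, but the set was chosen with earlier results of these data known. The cultures stood for 24 h on coated plastic and were then treated for 6 h in 6 groups of 6 libraries: a control with neither agent, 2 doses of sodium selenite (0.1 and 1), 5 mM of HCA, and 5 mM of HCA together with either dose. Selenite is a source of selenium for selenoproteins. The sample labels spell HCA out as homocysteic acid, which resembles glutamate and keeps cells from taking up cystine, while the series text calls HCA an inhibitor of ferroptosis. The labels and the series text give different units for selenite, so its doses stand here without one. The labels name 6 culture batches, and each batch held 1 library of every group. The neurons are untransformed cells in culture, all from 1 outbred strain, and no group carried an engineered allele in the labels.

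Complex I (NADH:ubiquinone oxidoreductase) is the entry point of most electrons into the respiratory chain: it oxidises NADH, reduces ubiquinone and pumps protons across the inner mitochondrial membrane. Its membrane arm is built around subunits encoded in mitochondrial DNA, while the remaining subunits are encoded in the nucleus and imported. ND2, ND4 and ND5 are the antiporter-like subunits of the proton-pumping membrane arm, ND1 lies at the ubiquinone channel, and ND3 and ND6 lie near the junction of the arms. The circular genome is transcribed from both strands into long precursors that are cut mostly at the tRNAs between the genes, and ND6 is the protein-coding gene of the light strand. Neurons rely heavily on oxidative phosphorylation, and complex I is a known source of superoxide.

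The names of these rows rest on an inference. The table's gene identifiers appeared to be displaced by 1 transcript in transcript identifier order, so each message stands under the identifier of another gene. mt-Nd1 was read from the row of ENSMUSG00000064342 (mt-Ti), mt-Nd2 from ENSMUSG00000064346 (mt-Tw), mt-Nd3 from ENSMUSG00000064361 (mt-Tr), mt-Nd4 from ENSMUSG00000064364 (mt-Th), mt-Nd5 from ENSMUSG00000064368 (mt-Nd6) and mt-Nd6 from ENSMUSG00000064369 (mt-Te). All but the fifth of these are tRNA genes, and the identifier of mt-Nd6 itself holds the row read here as mt-Nd5. For the protein-coding genes of the mitochondrial genome, the row of the next identifier was present for 13 of 13, that after mt-Nd4l being the row of the nuclear gene Nsd3, whereas the genes' own identifiers were present for 4 of 13. The identifiers that follow the ribosomal RNA genes mt-Rnr1 and mt-Rnr2 had medians of 517888 and 1090260 estimated counts, and both belong to tRNAs, of 69 and 75 bases. The identifiers that follow the 22 tRNA genes were present for 7, with a median of 13 counts. The complex I message mt-Nd4l was left out, because its row would hold transcripts of 10 genes.

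On GRCm38 in GENCODE vM21 each gene is a single exon of chrM. mt-Nd1 lies at chrM:2751-3707, mt-Nd2 at chrM:3914-4951, mt-Nd3 at chrM:9459-9806, mt-Nd4 at chrM:10167-11544 and mt-Nd5 at chrM:11742-13565, all on the + strand of the reference. mt-Nd6 lies at chrM:13552-14070 on the - strand. Their lengths are 957, 1038, 348, 1378, 1824 and 519 bases in that order.

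Sequence bears on how these rows can be read. mt-Nd3 has an almost identical copy in the nuclear genome, the unprocessed pseudogene Gm28438 at chr1:24612775-24613119 on the - strand, with 99.7% identity over 345 aligned bases and a single mismatch. That mismatch is T3C, counted from the 5′ end of the transcript. It is in capitals in the first 33 bases, which are shown for this reason. A read within the 345 aligned bases that misses this base cannot tell the gene from its copy.
mt-Nd3: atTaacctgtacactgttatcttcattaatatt
Gm28438: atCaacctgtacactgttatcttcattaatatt
mt-Nd5 and mt-Nd6 overlap tail to tail on opposite strands. The last 45 bases of each are shown because the 14 bases in capitals are the same stretch of DNA read from either strand, and no source used here says whether reads were counted by strand.
mt-Nd5: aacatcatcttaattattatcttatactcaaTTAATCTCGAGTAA
mt-Nd6: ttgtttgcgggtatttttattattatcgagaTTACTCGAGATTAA
The sequences are GENCODE vM21 transcripts of the reference genome. Which base the mitochondrial DNA of CD1 mice carries at position 3 of mt-Nd3 was not examined. A read that covers this base may therefore not tell the pair apart in these cells either. Nuclear copies of at least 90% identity over at least 100 bases were also found for mt-Nd2 (Gm13339, 96.7% over 510 bases), mt-Nd4 (Gm28439, 100% over 876 bases), mt-Nd5 (Gm4076, 95.2% over 954 bases, and Gm11407, 92.3% over 1058 bases) and mt-Nd6 (Gm11408, 93.6% over 519 bases). No copy of that kind was found for mt-Nd1. The row that holds Gm28439, with 1 other gene, had a median of 4.59 counts, against 1104.5 in the row of mt-Nd4. The row of Gm11407, with 1 other gene, had a median of 88 counts, against 1247 for mt-Nd5. The row of Gm11408, which holds 9 genes in all, had a median of 182 counts, against 155 for mt-Nd6, and how reads were divided between the pair was not tested.

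The mt-Nd3 row cannot be taken alone. The row of Gm28438 held more counts than the mt-Nd3 row in 36 of 36 libraries, by a median of 8.59 times. The mt-Nd3 row held a median of 10.4% of the pair's counts, from 8.19e-07% in the library of control replicate 6 to 29.7% in 1 HCA library. Its count was whole, within 1e-06, in 0 of 36 libraries, while those of mt-Nd1, mt-Nd4, mt-Nd5 and mt-Nd6 were whole in all 36 and that of mt-Nd2 in 34. The share by group was 8.52% ± 4.80 (SD, n = 6) in control, 11.2% ± 5.84 with selenite 0.1, 12.3% ± 4.85 with selenite 1, 14.7% ± 8.69 with HCA, 10.4% ± 2.60 with HCA and selenite 0.1 and 10.2% ± 3.91 with HCA and selenite 1. The values of mt-Nd3 are therefore given with and without its copy.

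**Figure D1:**
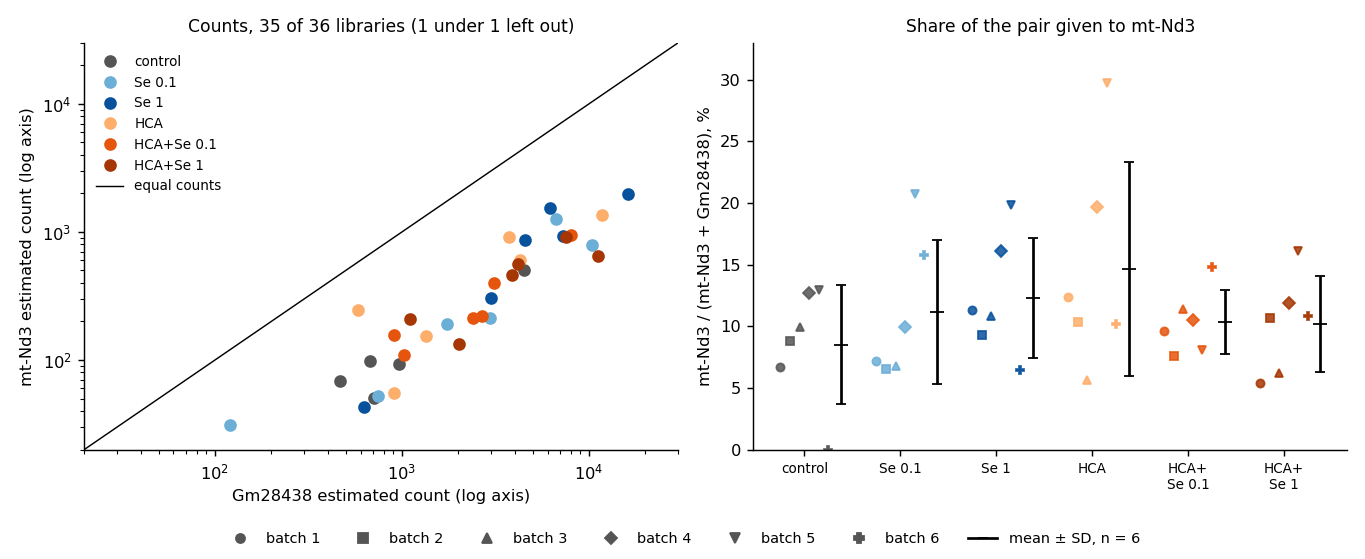
Left, estimated counts of the mt-Nd3 row against those of the row of its nuclear copy Gm28438, both on log axes, with 1 point per library, a line of equal counts, and control replicate 6 (mt-Nd3 count near 0) left off. Right, the percentage of the pair's counts in the mt-Nd3 row by group, with marker shapes for batches and bars for the mean ± SD (n = 6): all shares lie at or below 29.7%.

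The libraries held from 34.3 to 56.9 M estimated counts, but rows of ribosomal RNA type took from 1.68% to 90.1% of them. Control had the highest mean share, 77.7% ± 15.5, and HCA with selenite 1 the lowest, 34.1% ± 28.1. The 6 complex I rows together held from 413 to 33148 counts per library, and mt-Nd6 alone as few as 4. The values below are CPM, counts scaled to a common library total, after correction by edgeR's trimmed mean of M values (TMM), whose factors ran from 0.0309 to 4.19. The libraries of control replicates 5 and 6 and selenite 0.1 replicate 5 had the lowest factors (0.0785, 0.0949 and 0.0309) and the fewest complex I counts (639, 1178 and 413), and results of the tests below are also given without them where a call changed. Of the defining neuronal markers, Tubb3 (neuronal beta-tubulin) had a median of 864 CPM, Map2 of 2.11 and Rbfox3 of 4.12, with Rbfox3 at 0 in 1 library. Of 7 astrocyte and radial glia markers, 4 were matched to a row, and their summed mean level was 33.9 CPM (26.6 to 44.8) in control and 23.1 (13.6 to 33.3) with HCA, 34.4 and 25.7 without and with HCA at selenite 0.1, and 41.9 and 24.3 at selenite 1. The 6 neuronal markers matched, of 10, summed to 805 CPM in control (702 to 913) and 1040 with HCA (808 to 1235), 724 and 1012 at selenite 0.1, and 918 and 992 at selenite 1. Tubb3 made up most of these sums: the next highest marker, Syt1, had a median of 23.0 CPM. The part of either list in the results below was not tested. In such cultures fewer cells of a type and less RNA per cell cannot be told apart.

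Among the 6 messages, mt-Nd1 was the most abundant per unit length and mt-Nd6 the least. Over the 36 libraries the median level in CPM per kilobase was 85.3 for mt-Nd1 (56.2 to 162), 19.3 for mt-Nd2 (12 to 49.4), 16.5 for mt-Nd3 (8.19e-07 to 67.1), 13.0 for mt-Nd4 (6.67 to 36.3), 11.7 for mt-Nd5 (5.62 to 24.5) and 5.12 for mt-Nd6 (2.14 to 16.8). With its nuclear copy added, mt-Nd3 had a median of 158 per kilobase (64.2 to 437), above mt-Nd1 in 36 of 36 libraries. The place of mt-Nd3 in the order therefore depends on how the counts of the pair are assigned.

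The neighbours in this order differed in how firmly they could be ranked. Within libraries, mt-Nd1 exceeded mt-Nd2 in 36 of 36 (median ratio 4.20), and mt-Nd5 exceeded mt-Nd6 in 36 of 36 (median ratio 2.08). mt-Nd4 exceeded mt-Nd5 in 33 of 36, by a median of only 1.17 times. mt-Nd3 alone had no fixed place: mt-Nd2 was above it in 18 of 36 libraries, and it was above mt-Nd4 in 23 of 36. mt-Nd2 was above mt-Nd4 in 36 of 36, by a median of 1.45 times. For scale, the most abundant mitochondrial coding row, mt-Co1 (a subunit of cytochrome c oxidase), had a median of 451 CPM per kilobase.

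**Figure D2:**
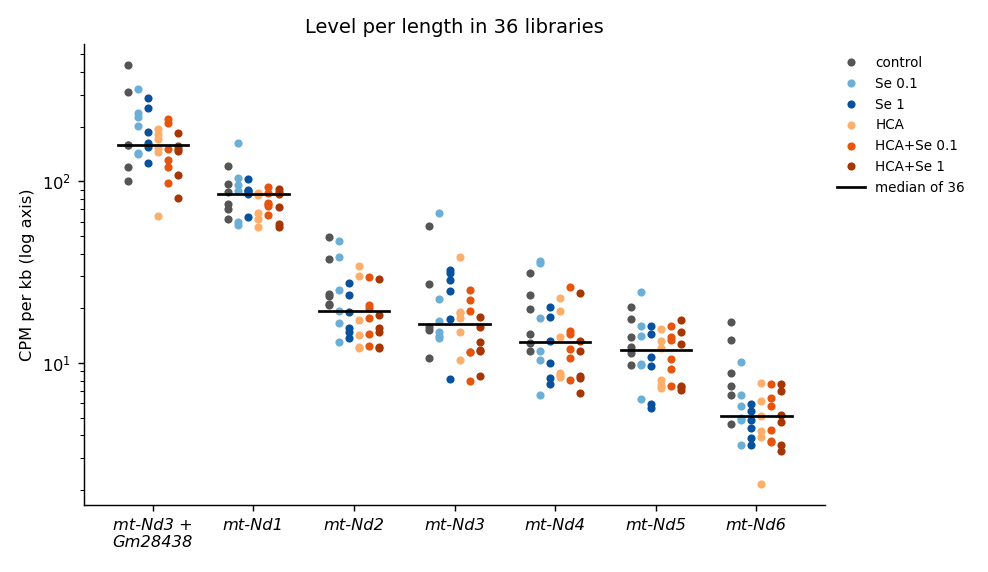
Level of each complex I message in CPM per kilobase on a log axis, 1 point per library coloured by group, with mt-Nd3 also summed with its nuclear copy and a line at the median; the mt-Nd3 value of control replicate 6, near 0, falls off the axis. mt-Nd1 sits above mt-Nd2, and mt-Nd5 above mt-Nd6, in all 36 libraries, while mt-Nd3 spans the range of its neighbours.

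The comparison of HCA with control asked how these messages differed after 6 h with HCA. All 6 were estimated lower with HCA, but none of the 6 passed an adjusted p of 0.05 in edgeR's quasi-likelihood test with Benjamini-Hochberg adjustment over 25588 rows. In that comparison 57 rows, 0.223% of those tested, passed in either direction and 7, 0.0274%, were lower. The median log2 fold change of the 6 was -0.45, with a range from -0.96 to -0.016, while that of all rows tested was 0.08 and 42.8% of them lay below 0. At an unadjusted p under 0.05, 1 of the 6 passed, against 7.86% of all rows. DESeq2 and limma voom also called 0 of the 6, where they called 176 and 35 rows of the whole table.

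Of the 6, mt-Nd6, the light strand message, had the largest estimate. Heavy strand rows outside complex I had estimates of similar size: -0.94 ± 0.47 for mt-Atp8 and -0.86 ± 0.60 for mt-Atp6. Of the 6 mitochondrial coding rows outside complex I that hold 1 gene, 5 were below 0, and the highest was mt-Co2 at 0.17. The control libraries of mt-Nd6 ran from 2.38 through a median of 4.22 to 8.70 CPM, and its HCA libraries from 1.11 through 2.41 to 4.04. 3 of the 6 HCA libraries lay below the lowest control library, and the groups overlapped. Means were 4.99 ± 2.38 CPM in control and 2.54 ± 1.01 with HCA (SD, n = 6 each), and HCA was lower in 5 of 6 batches. The log2 fold change of mt-Nd6 was -0.96 ± 0.31 (SE, 95% interval -1.59 to -0.32), with an unadjusted edgeR p of 0.00400 and an adjusted p of 0.323. That adjusted p ran from 0.100 with DESeq2 to 0.893 with depth outside ribosomal RNA as a covariate, where the log2 fold change was -0.68. Without batch 6 the log2 fold change was -0.58.

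Of the antiporter-like subunits, mt-Nd2 ran from 21.6 through 24.5 to 51.3 CPM in control and from 12.5 through 16.3 to 35.5 with HCA. Its log2 fold change was -0.55 ± 0.31 (edgeR adjusted p = 0.707). mt-Nd4 ran from 16.0 through 23.6 to 43.1 CPM in control and from 11.5 through 15.6 to 31.4 with HCA. Its log2 fold change was -0.47 ± 0.38 (edgeR adjusted p = 0.869), and it became 0.013 with depth outside ribosomal RNA as a covariate. mt-Nd5 ran from 17.8 through 23.8 to 37.1 CPM in control and from 13.2 through 18.4 to 28.1 with HCA. Its log2 fold change was -0.42 ± 0.30 (edgeR adjusted p = 0.825). Each of these 3 was lower with HCA in 4 of 6 batches, and the groups overlapped for each.

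mt-Nd1, whose protein lies at the ubiquinone channel, had the lowest relative spread of the set. It ran from 59.1 through 77.3 to 117 CPM in control and from 53.7 through 71.9 to 82.9 with HCA, with a log2 fold change of -0.22 ± 0.19 (edgeR adjusted p = 0.898). mt-Nd3 ran from 2.85e-07 through 5.41 to 19.7 CPM in control and from 3.60 through 6.36 to 13.4 with HCA. Its log2 fold change was -0.016 ± 0.49 and changed sign in 4 alternatives, for example to 0.71 with limma voom and to 0.22 without the 3 libraries named above, and ran from -0.38 to 0.51 when each batch was left out in turn. With its nuclear copy, mt-Nd3 ran from 34.8 through 55.2 to 152 CPM in control and from 22.3 through 56.4 to 67.9 with HCA, a log2 fold change of -0.49 ± 0.30 (edgeR adjusted p = 0.767). Both mt-Nd1 and mt-Nd3 were lower in 3 of 6 batches.

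**Figure D3:**
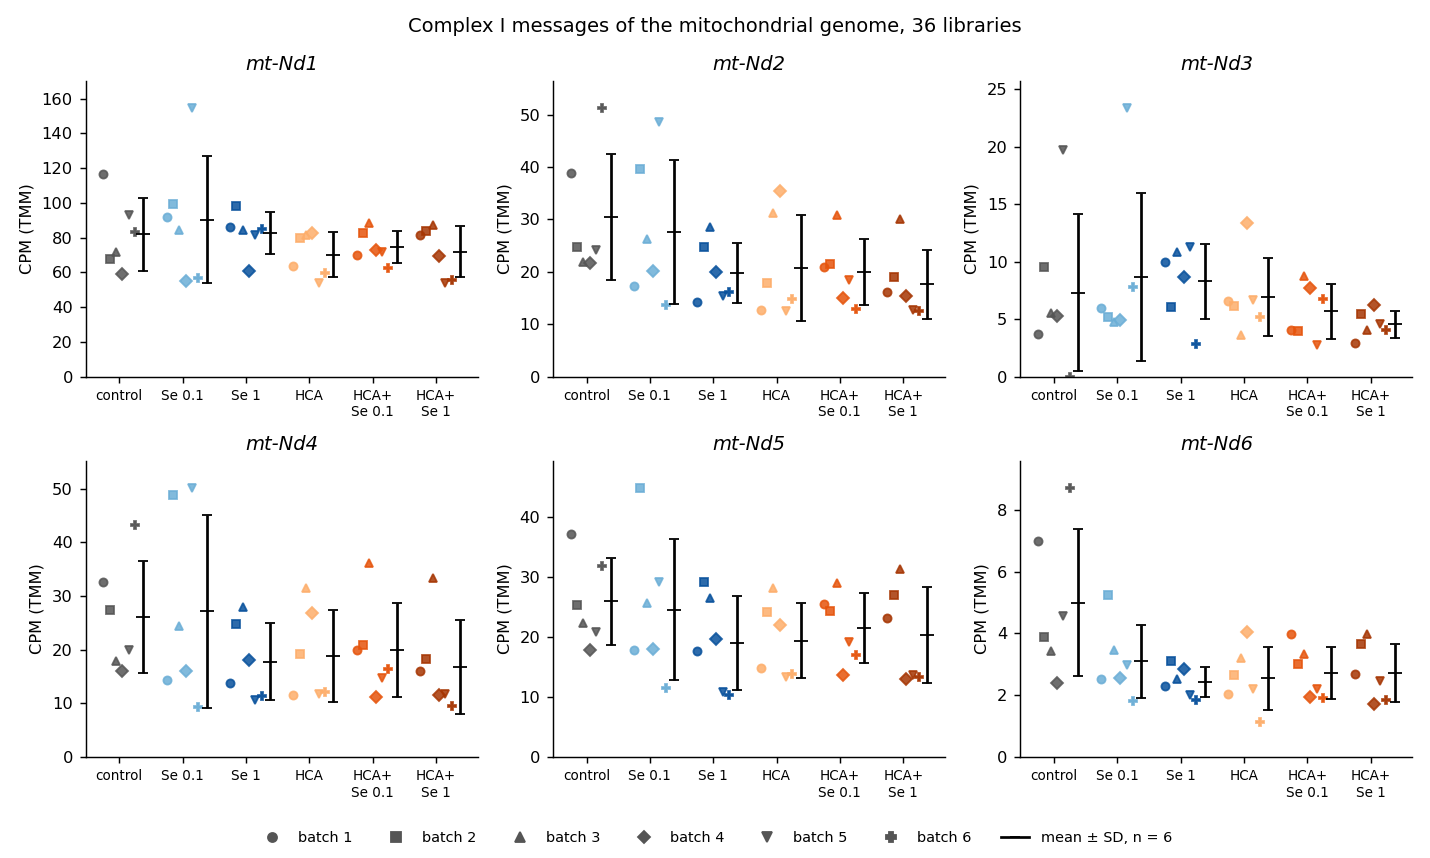
CPM of each complex I message in every library by group, 1 panel per gene, with marker shapes for batches and bars for the group mean ± SD. The groups overlap for all 6 genes, and for mt-Nd6 the control libraries reach 8.70 CPM while the HCA libraries end at 4.04.

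With selenite present, the median HCA estimate was nearer to 0. At selenite 0.1 all 6 messages were again below 0, with a median log2 fold change of -0.33 against 0.03 for all rows, and 0 of the 6 passed the edgeR test, where 0.16% of rows did. The range was from -0.43 ± 0.50 for mt-Nd3 to -0.17 ± 0.30 for mt-Nd5. At selenite 1, 4 of the 6 were below 0 with a median of -0.13 (all rows -0.018), and 0 of the 6 passed, where 0.152% of rows did. There mt-Nd3 had the largest estimate, -0.87 ± 0.48: it ran from 2.85 through 9.30 to 11.3 CPM with selenite 1 and from 2.96 through 4.31 to 6.23 when HCA was added. It was lower with HCA in 5 of 6 batches, and with its nuclear copy in 6 of 6 (-0.50 ± 0.30, edgeR adjusted p = 1.00). mt-Nd6 and mt-Nd5 were above 0 there, at 0.15 ± 0.30 and 0.09 ± 0.30. At an unadjusted p under 0.05, 0 of the 6 passed at either selenite dose, against 5.08% and 3.33% of all rows.

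Averaged over the 3 selenite levels, all 6 messages were estimated lower with HCA. The log2 fold changes were -0.44 ± 0.28 for mt-Nd3, -0.38 ± 0.18 for mt-Nd2, -0.33 ± 0.18 for mt-Nd6, -0.32 ± 0.22 for mt-Nd4, -0.23 ± 0.11 for mt-Nd1 and -0.17 ± 0.17 for mt-Nd5. Their median was -0.32, against 0.03 for all rows, of which 46.0% lay below 0. None of the 6 passed (edgeR adjusted p from 0.374 to 0.815), where 1.61% of rows passed in either direction and 0.516% were lower. At an unadjusted p under 0.05, 1 of the 6 passed, mt-Nd2, with an unadjusted edgeR p of 0.0380 and an adjusted p of 0.374, against 11.7% of all rows. All 6 stayed below 0 in 16 of 16 alternative analyses that fitted all of them. Each of those scaled libraries by TMM, upper quartile or DESeq2 factors, so the direction was not tried on another denominator there. Relative to counts outside ribosomal RNA type rows, the summed level of the 6 rows had other directions. With HCA it differed in log2 by 0.61 without selenite, 0.30 at selenite 0.1 and -0.04 at selenite 1, and no exact permutation test passed. For the single comparisons, all 6 were below 0 in fewer alternatives: 9 of 17 for HCA against control, 13 of 17 at selenite 0.1 and 0 of 17 at selenite 1. Within batches the picture was mixed: of 18 pairs of libraries of 1 batch and selenite level, HCA was lower in 12 for mt-Nd2 and mt-Nd3, in 10 for mt-Nd1, mt-Nd4 and mt-Nd6, and in 9 for mt-Nd5. mt-Nd3 with its copy was lower in 13 of 18, with a log2 fold change of -0.48 ± 0.18 (edgeR adjusted p = 0.206). The other mitochondrially encoded coding rows that hold 1 gene, those of cytochrome b, cytochrome c oxidase and ATP synthase, were below 0 in 6 of 6, with a median of -0.31.

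**Figure D4:**
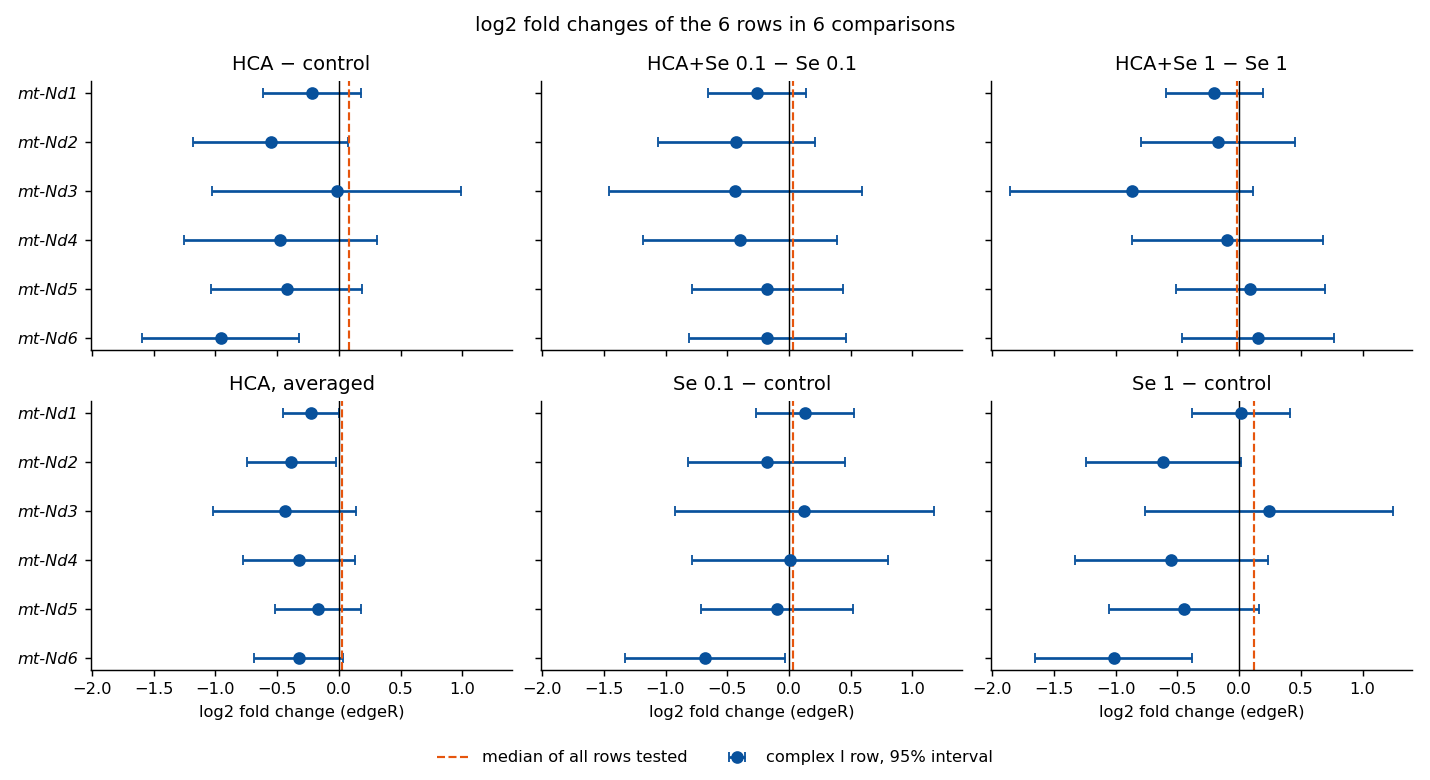
Log2 fold change with its 95% interval for each complex I message in 6 HCA and selenite comparisons, from edgeR over all 36 libraries, with a dashed line at the median of all rows tested. The averaged HCA effect lies below 0 for all 6, from -0.44 to -0.17, and no adjusted p reached 0.05.

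For selenite alone, 0 of the 6 passed against control at either dose, and 0% of all rows did. At selenite 0.1 the messages lay on both sides of 0, with 3 of 6 below it. At selenite 1, 4 of 6 were below 0 with a median log2 fold change of -0.50, against 0.12 for all rows. Of the 6, mt-Nd6 again had the largest estimates. It ran from 1.82 through 2.78 to 5.25 CPM with selenite 0.1 and from 1.84 through 2.41 to 3.10 with selenite 1. Its log2 fold change against control was -0.68 ± 0.32 at selenite 0.1 (edgeR adjusted p = 1.00) and -1.02 ± 0.31 at selenite 1 (edgeR adjusted p = 0.754). mt-Nd2 was at -0.61 ± 0.31 at selenite 1 (edgeR adjusted p = 0.945). At that dose the 6 mitochondrial coding rows outside complex I that hold 1 gene ran from -0.69 (mt-Atp6) to 0.96 (mt-Co2), with 4 of 6 below 0. These comparisons and that of HCA share the 6 control libraries, so their estimates are not independent of each other. At an unadjusted p under 0.05, 1 of the 6 passed at each dose, against 4.25% and 5.28% of all rows.

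When selenite was added to HCA, the estimates ran from -0.29 to 0.15 at selenite 0.1 and from -0.61 to 0.10 at selenite 1, with 0 of 6 and 0% of rows past the edgeR test and 0 of 6 at an unadjusted p under 0.05, against 1% and 0.805% of all rows. The test of the difference itself, the HCA effect at selenite 1 less that without selenite, gave 1.11 ± 0.43 for mt-Nd6 (edgeR adjusted p = 1.00, and below 0.05 before adjustment). At selenite 0.1 it gave 0.78 ± 0.44 for mt-Nd6 (edgeR adjusted p = 1.00). No message, and 0% of all rows, passed either of these tests, and at an unadjusted p under 0.05 0 of the 6 passed at selenite 0.1 and 1 of the 6 at selenite 1, against 2.44% and 2.29% of all rows, so a difference in the HCA effect between selenite levels was not shown.

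The light strand message was also set against the heavy strand messages of the same libraries. The measure was the log2 ratio of mt-Nd6 counts to the summed counts of the other 5 rows. This ratio does not depend on scaling between libraries. The sum was unweighted, so mt-Nd1 weighed most in it, with a median of 4304 counts against 1247 for mt-Nd5, the next highest. For selenite 1 against control the log2 fold change was 0.016 for mt-Nd1 and 0.24 for mt-Nd3. It was -0.61 for mt-Nd2, -0.55 for mt-Nd4 and -0.45 for mt-Nd5. The ratio of mt-Nd6 to each heavy strand row singly was not tested. No source used here says whether reads were counted by strand, so antisense reads over mt-Nd6 cannot be told apart from its own. The ratio was highest in control. The control libraries ran from -5.64 through a median of -5.27 to -4.57, the HCA libraries from -6.55 through -5.75 to -5.47, the selenite 0.1 libraries from -6.51 through -5.67 to -5.47 and the selenite 1 libraries from -6.14 through -5.98 to -5.48. In each of these 3 groups every library lay below 5 of the 6 control libraries, and the overlap came from control replicate 4. The groups with both agents overlapped control more: HCA with selenite 0.1 ran from -5.96 through -5.85 to -5.13, and HCA with selenite 1 from -6.08 through -5.61 to -5.30. Expressed as a percentage, mt-Nd6 counts were 2.82% ± 0.753 of the heavy strand counts in control, 1.85% ± 0.431 with HCA, 1.88% ± 0.436 with selenite 0.1, 1.67% ± 0.293 with selenite 1, 1.92% ± 0.470 with HCA and selenite 0.1 and 2.07% ± 0.378 with HCA and selenite 1 (SD, n = 6 each).

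Of 5 comparisons of this log2 ratio, the 3 with control passed a two-sided exact permutation test after adjustment over the 5. The difference was -0.61 with HCA (exact p = 0.00866, adjusted 0.0180), -0.59 with selenite 0.1 (exact p = 0.0108, adjusted 0.0180) and -0.74 with selenite 1 (exact p = 0.00433, adjusted 0.0180), each lower in 5 of 6 batches. Adding HCA at selenite 0.1 changed it by 0.05 (exact p = 0.816), with means of -5.73 ± 0.31 and -5.78 ± 0.39. At selenite 1 the change was 0.31 (exact p = 0.0693, adjusted 0.0866), with means of -5.61 ± 0.28 and -5.92 ± 0.23. All 3 calls rest on the same control libraries. Permuted within batches, each of the 3 gave an exact p of 0.0625 and an adjusted p of 0.104, where the smallest p that 6 pairs allow is 0.0312, and no call held.

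These calls also changed with the libraries used. Without the 3 libraries of lowest TMM factor the differences were -0.48 with HCA, -0.31 with selenite 0.1 and -0.60 with selenite 1, and the exact permutation test passed none (adjusted p = 0.0992, 0.0992 and 0.0714). Without batch 1, 2 or 6, 0 of the 5 comparisons passed, and without batch 6 the HCA difference was -0.34. With the counts of Gm28438 and Gm28439 added to the heavy strand rows, selenite 1 alone still passed (-0.74, exact permutation adjusted p = 0.0433). The control libraries also had the highest share of ribosomal RNA and as few as 16 counts of mt-Nd6, and the part of either in the result was not tested.

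**Figure D5:**
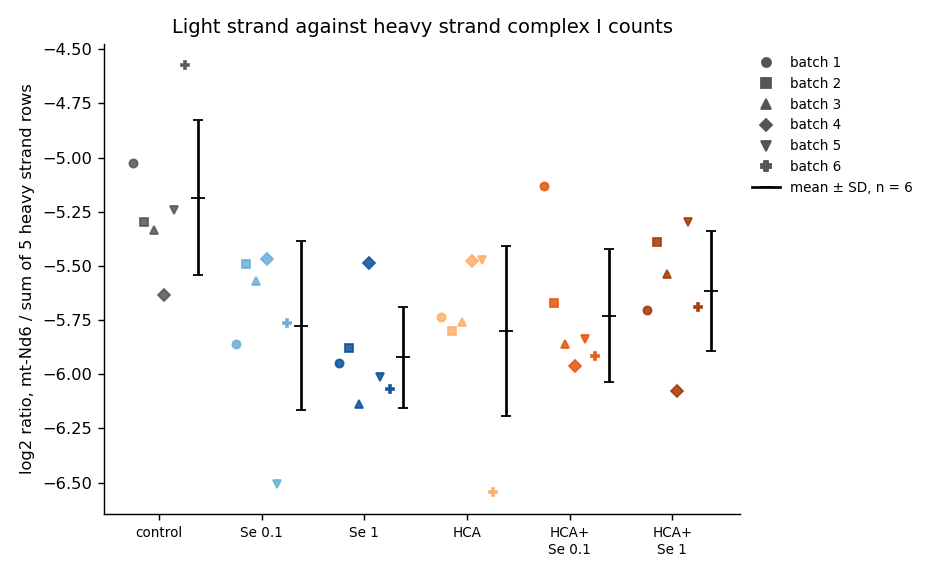
Log2 ratio of mt-Nd6 counts to the summed counts of the 5 heavy strand complex I rows, 1 point per library by group, with marker shapes for batches and bars for the group mean ± SD. In control 5 of 6 libraries lie above every library of the HCA, selenite 0.1 and selenite 1 groups.

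As a share of the counts of 12 mitochondrial coding rows, no difference with HCA passed: 0 of 18 exact permutation tests passed (lowest p = 0.106, adjusted p from 0.865 to 0.974). The summed level of the 6 rows had no fixed direction, because it depended on the denominator. Relative to counts outside ribosomal RNA type rows (CPM of those counts) the sum was 297 ± 166 in control and 403 ± 134 with HCA, a log2 difference of 0.61 (exact permutation p = 0.190, adjusted 0.667). On the TMM scale it was 177 ± 44.1 CPM in control and 139 ± 37.7 with HCA, a log2 difference of -0.36 (exact permutation p = 0.139, adjusted 0.708). Relative to all counts, ribosomal RNA included, the log2 difference was 1.85 for HCA against control (exact permutation p = 0.0411, adjusted 0.144) and 2.33 for selenite 1 against control (exact permutation p = 0.0303, adjusted 0.144). The ribosomal RNA share, which was highest in control, enters that denominator. None of the 42 tests of the sum over 6 denominators passed after adjustment.

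Culture batch took a larger part of the spread in some messages than in others. After log2 transformation, batch took 45% of the sum of squares of mt-Nd5, more than in 93.1% of all rows, and 28.0% for mt-Nd4, 21.9% for mt-Nd1, 19.6% for mt-Nd3, 17.0% for mt-Nd2 and 16.6% for mt-Nd6, with a median over all rows of 19.0%. Treatment group took 31.1% for mt-Nd6 and 22.5% for mt-Nd2, against a median of 13.8%. In batches 1 to 4, which hold none of the 3 libraries of lowest TMM factor, batch took 47.1% for mt-Nd5, and group took 15.0% for mt-Nd6 and 9.61% for mt-Nd2 where the median over all rows was 20.1%. The coefficient of variation over the 36 libraries was lowest for mt-Nd1 (25%) and highest for mt-Nd3 (65.6%).

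Most of the messages varied together over the 36 libraries, which share batches and scaling, so these correlations are descriptions. The correlation of log2 CPM was 0.94 between mt-Nd2 and mt-Nd4, 0.92 between mt-Nd4 and mt-Nd5, and 0.80 between mt-Nd2 and mt-Nd6. mt-Nd1 was less close to the others (0.51 to 0.69 for mt-Nd2, mt-Nd4, mt-Nd5 and mt-Nd6). mt-Nd3 stood aside, with values from -0.39 (mt-Nd6) to 0.08 (mt-Nd1) against the other 5. Without the 3 libraries of lowest TMM factor these ran from -0.12 (mt-Nd5) to 0.01 (mt-Nd4), the value with mt-Nd6 was -0.075, and those with mt-Nd1, mt-Nd2 and mt-Nd4 changed sign.

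Of 8980 rows given to 1 nuclear coding gene, the profiles most like the mean log2 CPM of the 6 messages were those of Utrn (utrophin, a cytoskeletal protein; r = 0.70), Pknox2 (a homeodomain transcription factor; 0.65), Dnajb14 (a J-domain co-chaperone; 0.65), Senp7 (a SUMO protease; 0.64) and Cdc73 (a subunit of the Paf1 complex; 0.64). Their rows carry the identifiers of Gm5265, Gm20651, Sema3g, Gm43167 and Trove2. Pknox2 and Senp7 were at 0 in some libraries and had mean levels of 0.428 and 0.551 CPM. With mt-Nd3 left out of the mean, the value was 0.74 for Cdc73, 0.57 for Dnajb14, 0.55 for Pknox2, 0.53 for Utrn and 0.31 for Senp7. Without the 3 libraries of lowest TMM factor it was 0.71 for Cdc73, 0.63 for Pknox2, 0.58 for Dnajb14, 0.57 for Utrn and 0.54 for Senp7. The profiles least like the mean were those of Rhobtb2 (-0.85), Usp11 (-0.78) and Fpr1 (-0.78), and the median over all 8980 was -0.16.

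The nuclear genes of the same complex gave no call either. Of 7 nuclear core subunits 3 could be tested, of 30 accessory subunits 12, and of 17 assembly factors 6. Each was read from a row that the shift of 1 transcript gives to 1 coding gene. The genes named below stand under the identifiers of other genes. Such a row can hold some of a gene's transcripts and not all. In these lists 0 passed the edgeR test in any comparison. For HCA against control, at an unadjusted p under 0.05, 0 of the 3 core subunits, 2 of the 12 accessory subunits and 1 of the 6 assembly factors passed, against 7.86% of all rows. There 11 of the 12 accessory subunits were above 0, with a median log2 fold change of 0.23, where all rows tested had a median of 0.08 and 42.8% below 0, and the 6 mitochondrial messages were all below 0. This contrast between the lists was not tested. Ndufb9 and Ndufb6, accessory subunits of the distal membrane arm, were at 0.29 ± 0.22 and 0.48 ± 0.21 (edgeR adjusted p = 0.839 and 0.582). Ndufv2 and Ndufs7, core subunits that carry iron-sulfur clusters, were at 0.15 ± 0.19 and 0.45 ± 0.22 (edgeR adjusted p = 0.949 and 0.634). The assembly factors Acad9 and Tmem186 were at 0.48 ± 0.20 and 0.01 ± 0.15 (edgeR adjusted p = 0.553 and 1.00). Averaged over the selenite levels, the accessory subunits had a median of 0.12, with 3 of 12 below 0.

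The genes that transcribe, copy and process mitochondrial RNA were likewise uncalled. Of 17 genes of mitochondrial transcription and replication 9 were tested, through rows of the same kind. For HCA against control 5 of the 9 were below 0 with a median log2 fold change of -0.0071. Mterf4 and Mterf3, members of the mitochondrial termination factor family, were at -0.0071 ± 0.23 and 0.01 ± 0.32. Of 23 genes of mitochondrial RNA processing and stability 6 were tested, with 1 of 6 below 0 and a median of 0.17. Fastk, whose mitochondrial form is known to bind mt-Nd6 mRNA, was at 0.18 ± 0.31, and Rexo2, an oligoribonuclease, at -0.07 ± 0.19. In neither list did a gene pass the edgeR test in any comparison, and at an unadjusted p under 0.05 in HCA against control 0 of 9 and 1 of 6 did, against 7.86% of all rows.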

How the data were processed

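The deposited table gives estimated counts per row for 36 libraries. Its name calls them TPM, but column totals run from 34.3 to 56.9 M. The submitters' processing notes name STAR, Salmon and GRCm38 without versions. The filter and the strand setting are not given in the sources used here. Rows were named through GENCODE vM21 with the shift of 1 transcript described above, which is inferred, and 27094 of the 27288 identifiers occur in that annotation. The members and gene lists were chosen with earlier results of these data known.

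Estimated counts were rounded to whole numbers and fitted with edgeR 4.0.16 (R 4.3.3) over all 6 groups, with TMM factors, filterByExpr (25588 rows kept, all 6 complex I rows among them) and robust quasi-likelihood tests, without a batch term. The threshold was an adjusted p of 0.05, with Benjamini-Hochberg adjustment over all rows tested, and SE is the log2 fold change over the square root of F. Ratios, shares and sums were tested by two-sided exact permutation over all 924 splits of 6 against 6 libraries. The ratio used 0.5 added to both counts. The code was run on simulated counts with a single fixed dispersion and no batch effect, and on made values for the exact tests. Changed rows in that simulation all had higher counts, so it does not cover batch spread or rows with few counts. Nuclear copies were searched with BLAST 2.17.0. Alternatives used DESeq2 1.42.0, limma 3.58.1 voom, other scalings, fewer libraries, a depth covariate and batch as a block.

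The named genes were all 6 complex I rows, the 2 rows of highest mean CPM in each nuclear list, and the 5 rows most and 3 least like the mean profile. The labels give each batch number in every group, so replicate numbers pair the libraries. Deviations of same-numbered libraries from their group means correlated with medians of 0.0227, 0.0314 and 0.157 in the 3 HCA comparisons. Each group has 6 cultures, all from different batches. Except where batch was a block or libraries were permuted within batches, p-values measure the whole spread between libraries of a group. That spread holds differences between batches together with all other differences between libraries.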

Additional observations from a re-analysis of the deposited data

Results flagged for a closer look

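For each group of 6 libraries the highest and lowest value was compared with the rest: 90 sets were examined, and 15 had a library whose gap to its neighbour exceeded Dixon's 95% critical value for 6 values. Chance marks about 5% of sets that are normally distributed and independent. These sets share libraries and rows and were not checked for shape, so 15 of 90 cannot be judged against that rate.

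Batch 3 held several. In HCA with selenite 1, replicate 3 had the highest mt-Nd2 (30.1 CPM, next 19.0) and mt-Nd4 (33.3 CPM, next 18.3). mt-Nd4 also took the highest share of the mitochondrial coding counts there (2.97%, next 1.59%) and in HCA with selenite 0.1 replicate 3 (3.00%, next 1.97%). mt-Nd2 and mt-Nd4 were also the closest pair over all libraries.

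HCA replicate 4 had the highest mt-Nd3 of its group (13.4 CPM, next 6.64), and the highest shares of mt-Nd1 (11.9%, next 7.36%), mt-Nd3 (1.92%, next 0.871%) and mt-Nd6 (0.582%, next 0.291%). Control replicate 6 had the highest shares of mt-Nd2 (5.07%, next 2.75%), mt-Nd4 (4.27%, next 2.59%) and mt-Nd6 (0.860%, next 0.495%), and it held 1178 complex I counts in all. Selenite 0.1 replicate 5, with 413 such counts, had the highest mt-Nd3 (23.4 CPM, next 7.83) and the highest share of mt-Nd1 (8.12%, next 6.98%).

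The log2 ratio of mt-Nd6 to the heavy strand rows was lowest in HCA replicate 6 (-6.55, next -5.80) and highest in HCA with selenite 0.1 replicate 1 (-5.13, next -5.67).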

How the results depend on the processing

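No complex I message passed the edgeR threshold in any of the 10 comparisons under the 11 alternatives that kept all batches (where each could be fitted) or the 6 that left 1 batch out, so what moved were directions and the counts of rows past the threshold over the whole table. The averaged effect was not fitted with only the groups compared. The causes below were not tested. Few complex I counts limit what can be shown, from 413 per library.

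Rows past the threshold with DESeq2 were 176 for HCA against control, 154 at selenite 0.1, 120 at selenite 1 and 1068 averaged, against 57, 41, 39 and 413. For comparisons with 0 rows in edgeR DESeq2 gave 11 and 19 for selenite against control, 2 and 3 for selenite added to HCA, and 4 and 8 for the differences in HCA effect. For HCA at selenite 0, 0.1 and 1, limma voom gave 35, 67 and 98, and fits with only the groups compared gave 22, 22 and 21. With quality weights voom gave 117 at selenite 0.1, 174 at selenite 1 and 949 averaged. Without the 3 libraries of lowest TMM factor it was 62 for HCA at selenite 0.1. Leaving out each batch in turn gave 29 to 68, 23 to 41, 21 to 42 and 183 to 421 for the 4 HCA results, 0 to 5 for selenite 0.1 and 0 to 11 for selenite 1.

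With culture batch as a replicate block, 75, 54, 59 and 575 rows passed for the 4 HCA results. The log2 fold change of mt-Nd3 with HCA became 0.12 and that of mt-Nd4 with selenite 0.1 became -0.16. Permuted within these pairs, the light strand differences of -0.61, -0.59 and -0.74 no longer passed. The block changed no other call.

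For HCA against control, mt-Nd3 became 0.71 (voom), 0.62 (voom with weights) and 0.22 (without the 3 libraries), and mt-Nd4 0.013 (depth covariate). At selenite 0.1, voom with weights gave 0.045 for mt-Nd1, 0.049 for mt-Nd2, 0.31 for mt-Nd4, 0.25 for mt-Nd5 and 0.079 for mt-Nd6, and voom 0.11 for both mt-Nd4 and mt-Nd5. At selenite 1, mt-Nd5 became -0.069 with weights. For selenite 0.1 against control, mt-Nd1 became -0.036 (voom), -0.077 (weights) and -0.022 (without the 3 libraries), mt-Nd3 -0.055 (without them) and -0.016 (with its copy), and mt-Nd4 -0.44, -0.55 and -0.066 in the order given for mt-Nd1. For selenite 1 against control, mt-Nd1 became -0.096 (DESeq2), -0.031 (upper quartile) and -0.042 (only these groups), mt-Nd3 -0.13 (with its copy, blocked or not), and mt-Nd4 0.10 (depth covariate). For selenite 0.1 added to HCA, mt-Nd2 became 0.054 (voom) and 0.28 (weights), mt-Nd3 0.031 (with its copy) and 0.017 (blocked as well), and mt-Nd4 -0.049 (depth covariate). For selenite 1 added to HCA, mt-Nd5 became -0.012 (voom).

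Leaving out each batch in turn, log2 fold changes crossed 0 as follows. For HCA mt-Nd3 ran from -0.38 to 0.51. At selenite 0.1 mt-Nd3 ran from -0.74 to 0.12, mt-Nd5 from -0.34 to 0.062 and mt-Nd6 from -0.39 to 0.014, and at selenite 1 mt-Nd4 from -0.24 to 0.0048. For selenite 0.1, mt-Nd1 ran from -0.038 to 0.28, mt-Nd2 from -0.44 to 0.17, mt-Nd3 from -0.15 to 0.34, mt-Nd4 from -0.28 to 0.39 and mt-Nd5 from -0.38 to 0.14. For selenite 1 mt-Nd1 ran from -0.089 to 0.11. For selenite 0.1 added to HCA, mt-Nd2 ran from -0.18 to 0.25, mt-Nd4 from -0.029 to 0.34 and mt-Nd6 from -0.098 to 0.37. For selenite 1 added to HCA, mt-Nd1 ran from -0.051 to 0.082, mt-Nd2 from -0.34 to 0.013, mt-Nd4 from -0.28 to 0.037 and mt-Nd5 from -0.057 to 0.19.

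Light strand differences that no longer passed were -0.55 (HCA) and -0.59 (selenite 0.1) with copies added, and -0.48, -0.31 and -0.60 without the 3 libraries, where HCA at selenite 0.1 turned to -0.099. Leaving out each batch gave -0.77 to -0.34 for HCA, -0.74 to -0.46 for selenite 0.1, -0.91 to -0.59 for selenite 1, -0.088 to 0.16 for HCA at selenite 0.1, and 0.23 to 0.49 for HCA at selenite 1, which passed without batch 4.

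Share differences, in percentage points, turned to -0.53 for mt-Nd3 with HCA, and to -0.0021 for mt-Nd1 and -0.0011 for mt-Nd6 at selenite 0.1, with copies added. Without the 3 libraries they turned to 0.019, 0.0045 and -0.0079 for mt-Nd3, mt-Nd4 and mt-Nd6 at selenite 0.1. Leaving out each batch, HCA gave -0.80 to 0.50 for mt-Nd1, -1.12 to 0.068 for mt-Nd2, -0.10 to 0.33 for mt-Nd3 and -0.84 to 0.13 for mt-Nd4. At selenite 0.1 it gave -0.24 to 0.49, -0.19 to 0.075, -0.36 to 0.17, -0.080 to 0.36 and -0.028 to 0.035 for mt-Nd1, mt-Nd3, mt-Nd4, mt-Nd5 and mt-Nd6. At selenite 1 it gave -0.27 to 0.030 for mt-Nd4 and -0.0089 to 0.041 for mt-Nd6.

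Log2 differences of the sum turned with the denominator. On the TMM scale they were -0.36 (HCA), -0.24 (HCA at selenite 0.1), -0.035 (selenite 0.1), -0.22 (selenite 1) and -0.049 (selenite 1 added to HCA), and with Gm28438 added -0.41, -0.29, -0.036, -0.20 and -0.053. Per nuclear coding count they were -0.28 (HCA), -0.24 (HCA at selenite 0.1), -0.15 (selenite 1) and -0.0092 (selenite 1 added to HCA), and with Gm28438 -0.33, -0.28, -0.14 and -0.013. Relative to all counts, HCA at selenite 1 was 0.12 and selenite 0.1 added to HCA -0.051. HCA at selenite 0.1 was -0.075 without the 3 libraries and -0.083 to 0.49 leaving out each batch, and HCA at selenite 1 was -0.28 to 0.065.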
